A study of Rattus norvegicus with 6 samples.

Results

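A set of 10 genes of BMP and activin signalling were examined in RUCA-I cells, an epithelial line from a rat endometrial adenocarcinoma of the Lewis strain. The genes encode targets, inhibitors, a ligand and receptors, and they were taken by symbol from a table of 26459 tested rows, using the longest locus where a symbol had more than 1 row. A row could be used for 9 of the 10 genes, and Bmp4 had no tested row under its symbol and was not analysed here. The choice of the 10 genes was made with the levels and calls of this same comparison known, so their values are given as a description and no test of them is offered as support.

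The miR-203 KO group consisted of 3 independently generated lines (genotype miR-203 -/-), and the WT group of 3 batches of wild-type RUCA-I cells. All were untreated, grown in DMEM/F12 with fetal calf serum to near confluence, and total RNA was sequenced from strand-specific libraries. The deposited table holds 1 FPKM value (fragments per kilobase of transcript, scaled to the number of mapped fragments) for each group, which pools its 3 samples, so levels are given without SD or n and the depth of each sample is unknown. Whether a difference exceeds the spread between the 3 samples of a group is known only from the authors' own Cuffdiff test, and a gene is called here where the q-value in the authors' deposited table was under 0.05. Separately made lines are compared with batches of the parental line, so an effect of the lost microRNA and a difference carried by the lines cannot be told apart.

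Bone morphogenetic proteins (BMPs) and activins are secreted dimers of the TGF-beta family that bring together type II and type I receptor kinases on the cell surface. The type I receptors phosphorylate SMAD proteins, which enter the nucleus with SMAD4 and switch on target genes, among them the Id genes and the pathway's own inhibitors. In the mouse uterus, the type I receptors Bmpr1a and Acvr1 and the antagonist follistatin have been linked by conditional knockouts to implantation or decidualization.

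The microRNA that the KO lines lack is shown with its seed, bases 2 to 8, in capitals, because it defines the groups. In RefSeq on GRCr8 the arm rno-miR-203a-3p lies at chr6:137020756-137020777 on the plus strand. A microRNA named rno-miR-203b-3p, from the gene Mir3545, lies at chr6:137020716-137020737 on the minus strand of the same hairpin region, and its seed differs. The labels do not say how much of the hairpin was removed, and neither microRNA had a row in the table that could be used.
rno-miR-203a-3p: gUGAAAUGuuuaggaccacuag
rno-miR-203b-3p: uUGAACUGuuaagaaccacugg

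The promoters of the 3 Id genes and of Bambi are shown because Id1 and Bambi were the genes called higher and Id2 and Id3 are the closest relatives of Id1. RefSeq windows of 300 bases on GRCr8 run from 250 bases before the annotated start to 50 after it, and such windows were given for 7 of the 10 genes (Id1, Id2, Id3, Bambi, Smad7, Bmp4 and Bmpr1a). Capitals mark 4 motifs searched on both strands, namely GGCGCC and GGAGCC, GC-rich elements of the kind bound by BMP-activated SMADs, CAGAC, a SMAD-binding box, and TATAAA. The Id1 window lies at chr3:161671314-161671613 on the plus strand, Id2 at chr6:47470946-47471245 on the minus strand, Id3 at chr5:153656041-153656340 on the plus strand and Bambi at chr17:58820954-58821253 on the minus strand.
Id1: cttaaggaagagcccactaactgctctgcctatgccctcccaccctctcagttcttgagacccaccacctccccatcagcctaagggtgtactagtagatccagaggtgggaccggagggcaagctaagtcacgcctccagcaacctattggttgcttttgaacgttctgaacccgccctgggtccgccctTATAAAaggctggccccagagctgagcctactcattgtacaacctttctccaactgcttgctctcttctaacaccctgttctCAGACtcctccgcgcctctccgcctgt
Id2: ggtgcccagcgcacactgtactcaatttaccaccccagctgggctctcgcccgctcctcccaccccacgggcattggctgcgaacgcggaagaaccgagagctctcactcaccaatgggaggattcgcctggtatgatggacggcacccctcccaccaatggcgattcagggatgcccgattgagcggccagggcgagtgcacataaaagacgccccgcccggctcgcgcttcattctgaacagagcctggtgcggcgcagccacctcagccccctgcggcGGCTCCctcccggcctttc
Id3: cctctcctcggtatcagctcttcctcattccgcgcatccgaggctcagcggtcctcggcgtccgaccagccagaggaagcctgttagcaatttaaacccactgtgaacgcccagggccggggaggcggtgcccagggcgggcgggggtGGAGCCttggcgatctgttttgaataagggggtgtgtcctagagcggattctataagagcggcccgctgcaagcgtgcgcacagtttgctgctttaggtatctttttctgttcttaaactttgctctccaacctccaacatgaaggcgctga
Bambi: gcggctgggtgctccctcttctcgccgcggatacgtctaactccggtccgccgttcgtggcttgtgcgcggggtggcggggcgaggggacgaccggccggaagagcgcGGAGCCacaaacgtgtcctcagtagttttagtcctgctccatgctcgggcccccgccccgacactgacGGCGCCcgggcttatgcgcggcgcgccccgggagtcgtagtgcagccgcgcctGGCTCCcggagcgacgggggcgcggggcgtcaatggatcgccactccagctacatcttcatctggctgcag

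In the Id1 window, TATAAA began 59 bases before the start and CAGAC at base 24 after it, and neither GC-rich element was found. The Id2 window held GGAGCC on the opposite strand from base 32 after the start, and the Id3 window held it 102 bases before the start. The Bambi window held GGCGCC 74 bases before the start and GGAGCC 142 bases before it, and GGAGCC on the opposite strand from 21 bases before it. Over all 33469 RefSeq windows, GGCGCC was found in 11.0%, GGAGCC in 27.9%, CAGAC in 50.1% and TATAAA in 14.2%, and over the 7 windows of the listed genes in 2, 4, 2 and 2. The Bambi window was 70.3% G and C with 40 CpG and the Id1 window 55.7% with 8 CpG, where the median of all windows was 51.7% and 7 CpG. A match of letters is no binding site, and an element outside these 300 bases would not be seen. Positions count from the annotated start, and where transcription begins in these cells was not examined.

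Of the 9 genes, Id1 and Bambi were called higher and Fst lower in miR-203 KO cells, while Id2, Id3, Smad6, Smad7, Bmpr1a and Acvr1 were not called. Over all tested rows 1.05% were called, with 0.491% higher and 0.556% lower, and since the 9 genes were picked with these calls known, nothing is read from their larger share. The calls thus cover 1 of the 3 Id targets, the decoy receptor and the secreted antagonist, and neither a receptor nor an inhibitory SMAD. The log2 ratios (KO over WT) of the 9 genes had a median of 0.09, against 0.01 over the 18080 rows averaging 1 FPKM or more. The 6 genes not called had log2 ratios from 0.02 to 0.21 as deposited, and only Id2 lay outside the quartiles of those rows (−0.13 and 0.16). With both groups scaled to the same FPKM sum, every log2 ratio, the median of all rows included, moves by −0.16, so Id3, Smad6, Smad7, Bmpr1a and Acvr1 turn below 0 but keep their place relative to the other rows.

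**Figure D1:**
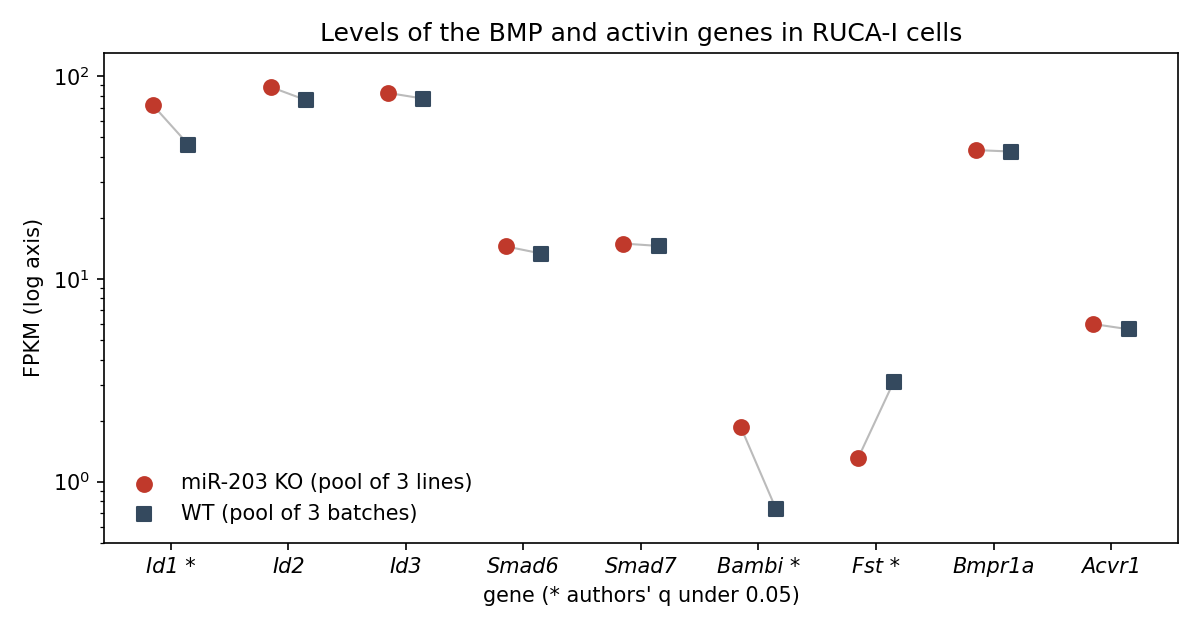
FPKM of the 9 genes on a log axis, with miR-203 KO as red circles on the left and WT as dark squares on the right of each pair; each point is the authors' pooled value of 3 samples, without an error bar. The red circle stands above the square by most for Bambi (1.85 and 0.731 FPKM) and Id1 (71.7 and 45.9), and below it for Fst (1.31 and 3.10).

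The Id genes encode helix-loop-helix proteins that lack a DNA-binding region and hold E proteins away from DNA, and they are classical targets of BMP signalling. Id1 (rn6 chromosome 3, 148215575 to 148216715) had 71.7 FPKM in KO cells and 45.9 FPKM in WT cells. It was 1.56-fold higher in KO cells (q = 0.00756, authors' deposited table). Among the Id genes it was the lowest in both groups, and the gap to the others was smaller in KO cells, where Id1 stood at 0.811 of the Id2 level, against 0.603 in WT cells.

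Id2 (chromosome 6, 44359530 to 44361967), known for a role in epithelial and lymphoid differentiation, had 88.3 FPKM in KO cells and 76.2 FPKM in WT cells. Its log2 ratio was 0.21, with p = 0.058 and q = 0.866 in the authors' deposited table. Id3 (chromosome 5, 154489577 to 154491176) had 82.6 FPKM in KO cells and 77.4 FPKM in WT cells, a log2 ratio of 0.09 with q = 0.997 in the authors' deposited table. All 3 Id genes were thus higher in KO cells as deposited, but the test passed for Id1 alone, and whether Id1 differs from Id2 or Id3 in its ratio was not tested.

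Summed, the Id genes had 243 FPKM in KO cells and 199 FPKM in WT cells. Among them Id1 differed most, by 25.7 FPKM, against 12.2 FPKM for Id2 and 5.18 FPKM for Id3. Id1 made up 29.5% of this sum in KO cells and 23.0% in WT cells. The E proteins that they bind had a similar sum in both groups. Tcf3, Tcf4 and Tcf12 summed to 62.8 FPKM in KO cells and 64.6 FPKM in WT cells, and none was called. The ratio of Id to E protein transcripts was thus 3.86 in KO cells and 3.09 in WT cells, a difference that was not tested. Tcf3, which encodes E12 and E47, had 37.6 FPKM in KO cells and 34.6 FPKM in WT cells, and Tcf4 had 9.07 FPKM in KO cells and 12.7 FPKM in WT cells (q = 0.997 for each in the authors' deposited table).

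The inhibitory SMADs, which are induced by the pathway and feed back on it, stayed close to their WT level. Smad6 (chromosome 8, 68897744 to 68967925), which acts mainly on BMP signals, had 14.5 FPKM in KO cells and 13.3 FPKM in WT cells. Smad7 (chromosome 18, 71395706 to 71424164), which also blocks TGF-beta and activin receptors, had 14.9 FPKM in KO cells and 14.5 FPKM in WT cells. Their log2 ratios of 0.12 and 0.04 came with q = 0.997 in the authors' deposited table for each. Without values per sample no interval can be given for these ratios, so a small difference is not shown to be absent.

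Bambi and Fst, which dampen the pathway at the cell surface and outside the cell, had the largest ratios among the 9 genes and the lowest levels. Bambi (chromosome 17, 56905142 to 56909827), a receptor-like protein without a kinase domain, had 1.85 FPKM in KO cells and 0.731 FPKM in WT cells. It was 2.54-fold higher in KO cells (q = 0.0187, authors' deposited table). In WT cells 24.4% of tested rows lay below Bambi, and in KO cells 42.3%. Fst (chromosome 2, 46537507 to 46544609) encodes follistatin, which binds activins tightly and some BMPs. It had 1.31 FPKM in KO cells and 3.10 FPKM in WT cells, a log2 ratio of −1.24 with q = 0.00756 in the authors' deposited table, which is 2.36-fold higher in WT.

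Rows at the level of Bambi and Fst spread more widely than rows at the level of Id1. The quartiles of the log2 ratio were −0.20 and 0.33 over rows averaging 1 to under 5 FPKM, and −0.11 and 0.10 over rows averaging 5 FPKM or more. In the first class 3.28% of the other rows were as high as Bambi or higher in log2 ratio and 2.81% as low as Fst or lower, and in the second class 2.10% were as high as Id1 or higher. With a pseudocount of 1 FPKM the log2 ratio of Bambi was 0.72 and that of Fst −0.83, which kept both directions. At q under 0.01, which 0.661% of tested rows met, Id1 and Fst were called and Bambi was not. With q recomputed over rows averaging 1 FPKM or more (1.45% called), the calls were Id1, Bambi and Fst. Over rows averaging 5 FPKM or more (1.53% called), Id1 was the call, as Bambi and Fst lay below that level and were not tested.

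**Figure D2:**
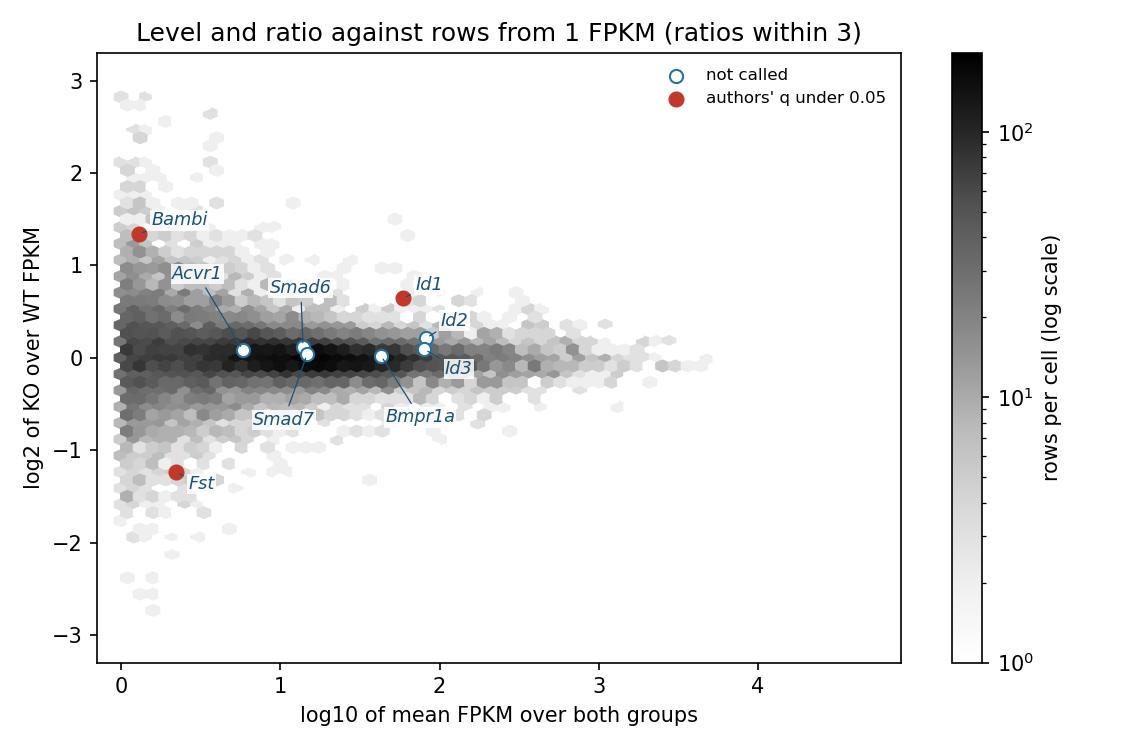
Log2 ratio of KO over WT FPKM against the log10 mean FPKM over both groups; grey cells count rows averaging 1 FPKM or more on a log scale, leaving out 45 rows with a log2 ratio beyond 3 in either direction, and the labelled points are the 9 genes. Red points (Bambi, Id1 and Fst) were called by the authors and lie away from the dark band, while the 6 open points lie between 0.02 and 0.21.

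Receptor transcripts differed little between the groups as deposited. Bmpr1a (chromosome 16, 10788944 to 10852140), a type I receptor for BMPs, had 43.2 FPKM in KO cells and 42.5 FPKM in WT cells. Its log2 ratio was 0.02 from these values and 0.0037 in the authors' deposited table, with q = 0.997. A second, shorter row of Bmpr1a (10756080 to 10760305) had 0.381 FPKM in KO cells and 0.126 FPKM in WT cells and was not called. Acvr1 (chromosome 3, 44432474 to 44551691), a type I receptor for BMPs that can also bind activin, had 5.98 FPKM in KO cells and 5.64 FPKM in WT cells. Its log2 ratio was 0.09, with q = 0.997 in the authors' deposited table. An unnamed row overlaps this locus, with 1.78 FPKM in KO cells and 2.39 FPKM in WT cells. Its strand was not examined, so whether reads are shared between these rows is not known.

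By FPKM level, Bmpr1a stood at 7.21 times Acvr1 in KO cells and 7.53 times in WT cells. It stood at 23.3 times the decoy receptor Bambi in KO cells and 58.1 times in WT cells. The order of the 9 genes differed between the groups at both ends. In KO cells it ran Id2, Id3, Id1, Bmpr1a, Smad7, Smad6, Acvr1, Bambi and Fst, and in WT cells Id3, Id2, Id1, Bmpr1a, Smad7, Smad6, Acvr1, Fst and Bambi. Neighbours as close as Id2 and Id3 or Smad7 and Smad6 cannot be ordered without a spread between samples.

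A further 99 genes of the BMP, activin and TGF-beta pathway, listed by role, were looked up in the same way. A tested row was found for 46, of which none was called higher, 1 was called lower and 45 were not called, a share of 2.17% against 1.05% of all tested rows. Over the 43 averaging 1 FPKM or more, 17 were higher and 26 lower in KO cells, and the median log2 ratio was −0.05, against 0.01 over all rows from 1 FPKM. Of all 26751 deposited rows, 7071 carried no symbol, so a gene without a row under its symbol is not shown to be unexpressed.

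Among target genes other than the Id genes and the inhibitors, Ctgf, connective tissue growth factor, had 44.4 FPKM in KO cells and 37.5 FPKM in WT cells (q = 0.766 in the authors' deposited table). Ltbp2, a matrix protein of the latent TGF-beta binding family, had 8.17 FPKM in KO cells and 10.6 FPKM in WT cells (q = 0.997 in the authors' deposited table). Neither was called, and their levels differed in opposite directions.

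Of 13 other BMP ligands, 4 had a row and none was called. Bmp7 (chromosome 3, 170879982 to 170955960) was the most abundant, with 27.3 FPKM in KO cells and 21.7 FPKM in WT cells, a log2 ratio of 0.33 with q = 0.298 in the authors' deposited table. Bmp8b had 20.3 FPKM in KO cells and 21.6 FPKM in WT cells. Of 19 activin, TGF-beta and other ligands, 7 had a row and none was called. Inhbb encodes the beta B subunit of activin and inhibin. It had 16.8 FPKM in KO cells and 21.2 FPKM in WT cells (q = 0.239 in the authors' deposited table). Inhbb stood at 12.8 times the level of its antagonist Fst in KO cells and 6.85 times in WT cells. As Inhbb itself was lower in KO cells, the larger ratio there comes from the lower Fst level. The ratio leaves out Fstl3, which also binds activin and had 12.9 FPKM in KO cells and 13.6 FPKM in WT cells. Tgfb2 had 14.5 FPKM in KO cells and 11.7 FPKM in WT cells, and Gdf15, a stress-induced member of the family, had 51.9 FPKM in KO cells and 54.0 FPKM in WT cells.

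Of 17 other secreted antagonists, only Fstl3 and Twsg1 had a row under their symbol, and neither was called. Fstl3, a relative of follistatin that also binds activin, had 12.9 FPKM in KO cells and 13.6 FPKM in WT cells (q = 0.997 in the authors' deposited table). It was the more abundant of the pair in both groups, at 9.83 times the Fst level in KO cells and 4.38 times in WT cells. Twsg1, twisted gastrulation, a modulator of BMP and chordin binding, had 25.9 FPKM in KO cells and 27.2 FPKM in WT cells.

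Receptors and SMADs other than those above held no call among 10 and 16 genes with a row. Tgfbr2, the type II receptor for TGF-beta, was the most abundant, with 122 FPKM in KO cells and 131 FPKM in WT cells. Acvr1b, a type I receptor for activin, had 7.34 FPKM in KO cells and 7.61 FPKM in WT cells. Rgma, a BMP co-receptor named after its values were seen, had 1.47 FPKM in KO cells and 0.795 FPKM in WT cells (q = 0.0551 in the authors' deposited table). Smad3, which transmits TGF-beta and activin signals, had 31.4 FPKM in KO cells and 36.5 FPKM in WT cells, and Nedd4l, a ubiquitin ligase that acts on SMADs, had 10.8 FPKM in KO cells and 8.14 FPKM in WT cells. Pmepa1, a TGF-beta target that restrains the pathway, had 67.0 FPKM in KO cells and 77.1 FPKM in WT cells (q = 0.882 in the authors' deposited table).

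**Figure D3:**
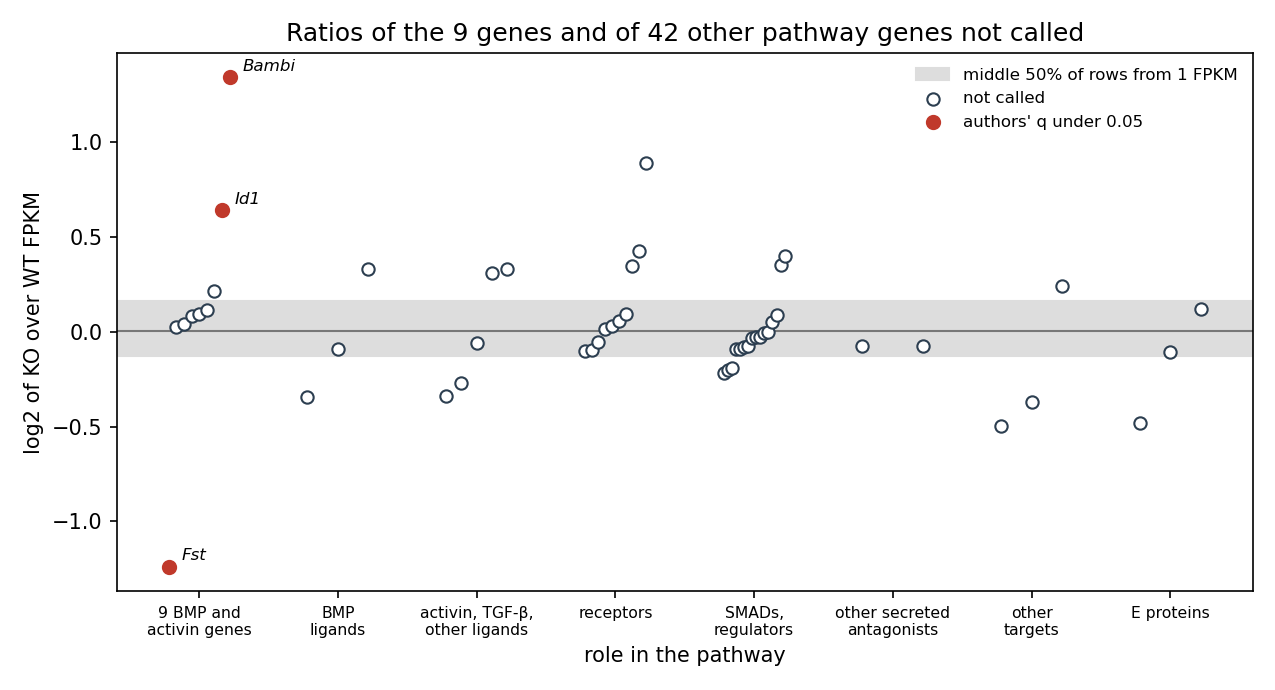
Log2 ratio of KO over WT FPKM for the 9 genes (left) and for 42 other pathway genes that average 1 FPKM or more and were not called, grouped by role; each point is 1 gene, red where the authors' q was under 0.05, and the grey band runs between the quartiles of all rows from 1 FPKM (−0.13 and 0.16). The red points are Bambi at 1.34, Id1 at 0.64 and Fst at −1.24, and the open point farthest from 0 is Rgma at 0.89.

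Id1 lies on the distal part of chromosome 3, where many rows were shifted upward in KO cells. Earlier results of these same data had shown this shift, and the region was looked at with it known. The 20 rows averaging 5 FPKM or more on either side of Id1 (146797660 to 150153819) had a median log2 ratio of 0.22, and 32 of these 40 were higher in KO cells. Id1, at 0.64, exceeded that median by 0.42, and 1 of the 40 rows had a larger ratio. Of the 40, only Rbck1 was called, with 39.5 FPKM in KO cells and 29.5 FPKM in WT cells (q = 0.0137 in the authors' deposited table). The next locus before Id1 is Hm13, with 4 rows of which 3 were higher and 1 was lower in KO cells, and the next after it is Bcl2l1, with 32.0 FPKM in KO cells and 29.0 FPKM in WT cells.

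On chromosome 3 from position 120000000 on, the median log2 ratio was 0.15 over 364 rows averaging 5 FPKM or more, and 82.7% were higher in KO cells. It was −0.02 over 491 rows before that position and −0.01 over 10434 rows of the other chromosomes. As the region was taken up with its shift known, this contrast is a description and no independent finding. Of the 364 rows, 7 were called, all higher, and Id1 itself is among the 7. Over all 11289 rows averaging 5 FPKM or more, 1.33% were called, with 68 higher and 82 lower. Of the 364 rows, 13 had a larger ratio than Id1. Of the further pathway genes, 3 lie in this region, and they did not share a direction, since Bmp7 (0.33) and Tgif2 (0.35) were higher and Pmepa1 (−0.20) was lower in log2 ratio, none of them called. The authors' log2 fold for Tgif2 was 0.31. Bmp7 had 3 rows under its symbol, and Tgif2 and Pmepa1 had 4 each. Only the longest row of each gene was used, and the others were not looked at. The part of this regional shift in the level of Id1 was not tested.

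Around the other genes the medians lay nearer to 0. The 40 rows around Bambi had a median log2 ratio of −0.04 and those around Fst −0.02, and Bambi stood above and Fst below all 40 of its rows, which all average 5 FPKM or more. Bambi and Fst average less than that, where ratios spread more widely, and both were picked with their ratios known. Their place outside these rows is thus no measure of a local departure. The rows next to Bambi, Mtpap and Cul2, had log2 ratios of −0.15 and −0.05, and those next to Fst, Ndufs4 and Mocs2, had −0.01 and 0.12. Of the 40 rows around Fst, Plk2 and Gpx8 were called lower, at log2 ratios of −0.73 and −0.59 and at 4628 and 1634 kb before it. Over all 11289 rows averaging 5 FPKM or more, 82 were called lower. A link between these calls and the level of Fst was not tested. Around the 6 genes not called, the median log2 ratio ran from −0.04 (Smad6) to 0.05 (Id2), and Acvr1, on the proximal part of chromosome 3, had −0.02.

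**Figure D4:**
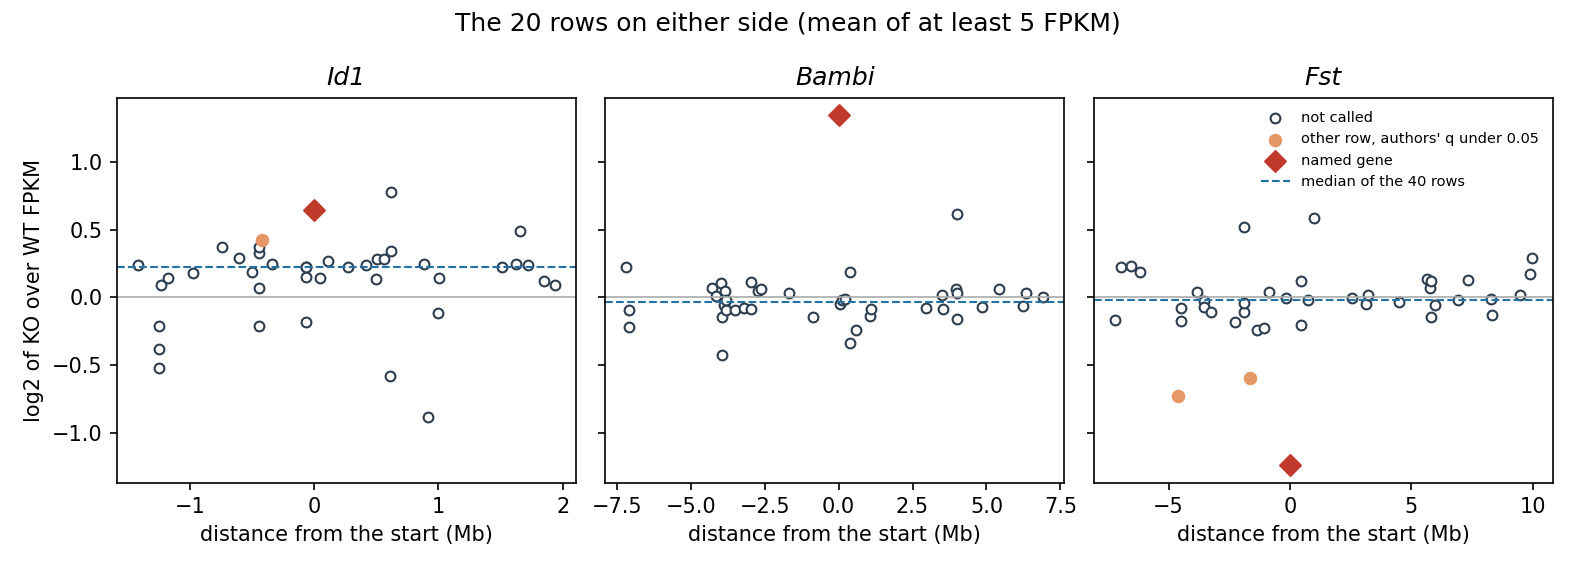
Log2 ratio of KO over WT FPKM for the 20 rows averaging 5 FPKM or more on either side of Id1, Bambi and Fst, against the distance of their starts in Mb; diamonds are the named genes, orange points other rows with the authors' q under 0.05, and the dashed line the median of the 40 rows. The dashed line stands at 0.22 for Id1, and at −0.04 and −0.02 for Bambi and Fst.

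The epithelial label of the cells was met by the markers. Cdh1, Epcam, Krt8 and Krt18 had rows between 121 and 419 FPKM in KO cells and between 103 and 501 FPKM in WT cells, none called, and Krt19 had no row under its symbol. Of 17 markers of fibroblasts, leukocytes, endothelium and muscle, 4 had a row under their symbol. These were Col1a1, Csf1r, Myh11 and Acta2, which summed to 5.69 FPKM in KO cells and 4.48 FPKM in WT cells, with Csf1r called lower (0.200 FPKM in KO cells and 0.791 FPKM in WT cells). In bulk RNA, fewer cells that express a gene and less RNA per cell cannot be told apart, which bears most on low genes such as Bambi and Fst.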

How the data were processed

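The members, the gene lists and the distal region of chromosome 3 were chosen with earlier results of these data known. Per the submitters' processing notes, the authors used rn6, Cuffdiff 2.2.1.3, Cufflinks 2.2.1 and a TopHat version listed as 0.9. Annotation, options and use of strand in counting were not given in the sources used here. Per the file headers, the authors deposited 1 FPKM value per group, a log2 fold, a test score with no fixed range, a p-value and a q-value. Numbers carry decimal commas, which were converted, and ranges were checked. FPKM keeps no read depth and is unsteady for low or short rows.

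The design foresaw limma on values per sample. As the table has none, no test was run, and the authors' q under 0.05 counts as a call. Of 26751 rows, 26459 were tested by the authors, whose q equalled Benjamini-Hochberg adjustment of their p-values within 5.12e-07. That adjustment was tested on simulated data. Log2 ratios come from the deposited FPKM without a pseudocount. In 425 of 26420 tested rows above 0 in both groups, the authors' log2 fold differed from that ratio by over 0.01, Bmpr1a among them. Duplicate samples could not be looked for, and the labels do not say whether WT batches are separate cultures.

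The genes named are the 10 members; of the pathway list every called gene (the 1 gene called lower is not reported here), and per role the gene with the highest mean FPKM and the 2 with the largest ratio from 5 FPKM on; and the nearest named row on either side of each called member. Rgma, Tgif2, Rbck1, Plk2, Gpx8, Tcf12 as part of a sum, and the markers of other cell types with a row were named after values were seen. Python 3.11.15, pandas 2.3.3, NumPy 2.4.6 and matplotlib 3.10.9 were used.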

Additional observations from a re-analysis of the deposited data

How the results depend on the processing

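The 3 calls among the 9 genes became 2 at q under 0.01. They became 1 when q was recomputed over rows averaging 5 FPKM or more, where Bambi and Fst are not tested. The 4 other settings gave 3. Among these, requiring a mean of 1 FPKM and taking the row with the highest mean FPKM could not give another number. All 9 genes average 1 FPKM or more, and the longest row of each is also its most abundant. The single call among the further pathway genes became 2 when q was recomputed over rows averaging 1 FPKM or more, a setting added after seeing the data, where Rgma passed with q = 0.0434 after Benjamini-Hochberg adjustment of the authors' p-values. The medians of the 9 genes, of the pathway list and of the rows around Id1 moved by under 0.1 (log2) under the settings run for each, those added later included (leaving out Id1 or distal chromosome 3, and 1 row per symbol), except under scaling to the same FPKM sum, also added later, which moves all of them by −0.16, to −0.070, −0.22 and 0.057. Of 72 ratios of single genes under 8 other settings, 6 changed the fold itself (not its log2) by over 1.5 times or changed sign in log2. The authors' fold column was run for these ratios only, as an addition. The 6 were Bambi with a pseudocount of 1 (0.72), and under scaling to the same FPKM sum Id3 (−0.070), Smad6 (−0.047), Smad7 (−0.12), Bmpr1a (−0.14) and Acvr1 (−0.078), where the construction lowers every ratio alike. Id1 ran from 0.48 to 0.66, Bambi from 0.72 to 1.34 and Fst from −1.40 to −0.83. Many of the 72 could not differ from the reported ratio, so the count overstates how far the ratios were challenged. Only Bmpr1a has a second row, and its longest row is also its most abundant. Taking the row with the highest mean FPKM thus changed no ratio, and summing rows could change Bmpr1a alone. The authors' fold column holds nearly the same ratio except for Bmpr1a. No paired analysis was possible because each group's samples were pooled into 1 FPKM, and for the same reason leaving out each replicate and limma were not run. Depth is unknown, so no interval limits the ratios of Bambi and Fst, the lowest of the 9 genes.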
